A study of Homo sapiens with 7 samples.

Results

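The regions described here are the short ubK119 peaks found in HT1080 cells treated with siRNA against VRK1 and absent from the other lists that the choice used. They were selected from the measured peak lists themselves: a peak of the siVRK1 ubK119 list was taken as a member when it was under 500 bp long and shared not even 1 bp with a peak of the siControl ubK119 list, the siControl VRK1 list or either list of input DNA. This held for 7864 of the 13818 peaks of that list (56.9%), out of 148917 peaks in the 7 lists of the series. HT1080 is a human fibrosarcoma cell line. Cells received an siRNA against VRK1 (siVRK1) or a non-targeting siRNA (siControl), and chromatin immunoprecipitation was followed by sequencing of the precipitated DNA. Antibodies against phosphorylated H2A (pT120) and ubiquitylated H2A (ubK119) were each used on siVRK1 and on siControl cells, and input DNA was sequenced for both. The VRK1 antibody was represented by siControl cells alone, so the extent of VRK1 depletion is not analysed here. Each condition had 1 library of 1 cell line, so no difference has a replicate check, no test was made, and intervals describe the counting of reads in these libraries and not the spread between cultures.

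H2A is a core histone whose C-terminal tail carries a lysine, K119, beside a threonine, T120. Ubiquitin is placed on K119 by Polycomb repressive complex 1, and this mark is known for its place on repressed genes. VRK1 is a nuclear kinase of chromatin that phosphorylates T120.

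The libraries held between 20687408 reads (siControl pT120) and 40442635 reads (siControl ubK119), so that 3 reads in a region corresponded to between 0.0742 and 0.145 RPM (reads scaled to a library total of 1000000). The siVRK1 ubK119 library had fewer reads than its control, 29976119 against 40442635, whereas the siVRK1 pT120 library had more, 36030842 against 20687408. The lists hold regions of hg19 without gene names, so members are named by position, and their genes and sequences are not analysed here.

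The ubK119 levels chose the members and are given as a description. Over the 7864 members together, siVRK1 ubK119 stood at 2768 RPM per Mb of covered sequence (95% exact Poisson interval 2755 to 2782), against 760.1 RPM per Mb (754.1 to 766.2) in siControl. All members but 1 had more ubK119 RPM in siVRK1 than in siControl cells (7863 of 7864). The regions were not empty of the mark's reads in siControl cells: the median member had 7 siControl ubK119 reads beside 19 siVRK1 ubK119 reads, and 48 members (0.610%) had no siControl ubK119 read. Members were short and low: the median length was 222 bp, with 2812 members (35.8%) at exactly 200 bp, the shortest length in the list. Peak height, which is the deepest stack of extended reads that a peak reaches, had a median of 19 and a maximum of 33, and 5025 members (63.9%) stood at 18 or 19 reads, beside 49.3% of the whole list, which begins at 18. The Mann-Whitney p-value that the authors gave each peak had a median of 0.230 in the members, beside 0.217 for the whole list. It is not read here as a test of enrichment over input.

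The pT120 libraries took no part in the choice of members. Their reads over the members were fewer in siVRK1 cells than in siControl cells: 22611 reads, 628 RPM in all, or 319 RPM per Mb (314.5 to 323), against 34958 reads, 1690 RPM in all, or 858 RPM per Mb (849 to 867). The ratio of summed pT120 RPM, siVRK1 over siControl, was 0.371 (95% exact conditional binomial interval 0.365 to 0.378). All intervals cover counting error only, since reads amplified by PCR without molecular identifiers are not independent molecules.

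**Figure D1:**
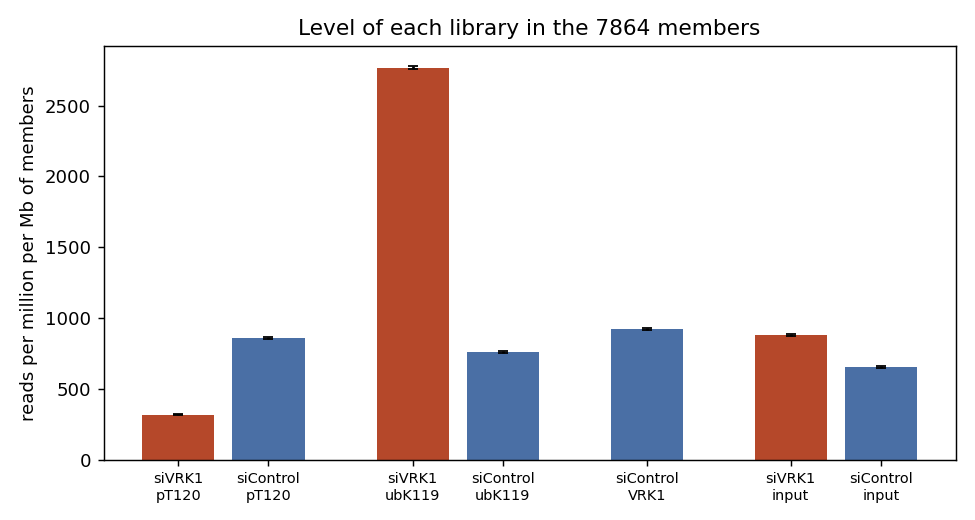
Level of each of the 7 libraries summed over the 7864 members, in RPM per Mb of covered sequence, with exact Poisson 95% intervals as error bars (siVRK1 cells in red, siControl cells in blue). The siVRK1 pT120 bar, at 319, is the lowest of the 7, against 858 for siControl pT120; the ubK119, VRK1 and input bars come from libraries that chose the members.

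Taken member by member, the median member had 3 pT120 reads in siVRK1 cells and 4 in siControl cells, although the siVRK1 library was the deeper one, and in RPM the medians were 0.0833 and 0.193. The pT120 RPM was lower in siVRK1 than in siControl cells in 6714 members (85.4%), where it was lower in 85.8% of all peaks of the siVRK1 ubK119 list. It was higher in 1113 members (14.2%), where the list had 13.9%, and no pT120 read fell in the remaining 37. These shares are those of the list and say nothing particular to the members. No siVRK1 pT120 read was counted in 829 members (10.5%), against 222 members (2.82%) without a siControl pT120 read. Over the whole list, which holds longer peaks, the shares were 6.88% for siVRK1 and 1.82% for siControl. With 3 or 4 reads a member, single members carry wide errors, and a rank correlation of pT120 reads per bp between the libraries over the members was 0.0650, which is weak in counts this sparse and is given as a description.

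**Figure D2:**
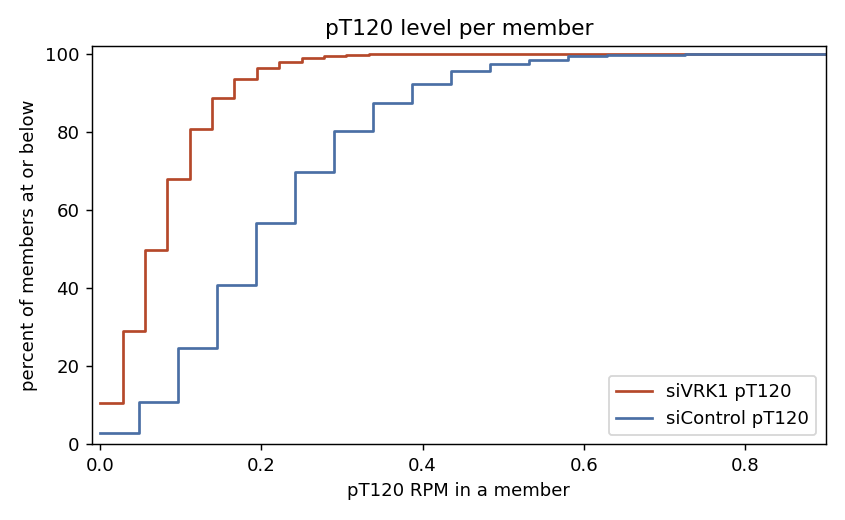
Cumulative percent of the 7864 members at or below a given pT120 level, in RPM, for siVRK1 cells (red) and siControl cells (blue). The siVRK1 curve lies to the left, with medians of 0.0833 RPM in siVRK1 and 0.193 RPM in siControl, and each step is 1 read.

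A ratio per member was read where the pT120 libraries together gave at least 10 reads. Of the 1921 members that had them, 1265 (65.9%) had a siVRK1 over siControl ratio at or below 0.5, where the same call was made for 53.8% of all 6618 regions of the siVRK1 ubK119 list with enough reads. A ratio at or above 2 was found in 37 members (1.93%), close to the 1.48% of the whole list. The median ratio was 0.383 among these members and 0.478 over the list.

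The input libraries differed in the same regions. The siVRK1 input stood at 879 RPM per Mb (872 to 886) and the siControl input at 653 RPM per Mb (647 to 660.4), a siVRK1 over siControl ratio of 1.34 (1.33 to 1.36). The ratio of the inputs was 1.01 over 34403 input regions, the peaks of both input lists with the longest of overlapping ones kept. Short siVRK1 ubK119 peaks off input had input ratios of 1.28 on a siControl ubK119 peak and 1.33 on a VRK1 peak instead. Peaks of 500 bp or more that met the rest of the rule had 1.51. The difference from the input regions was thus not particular to the members. The input lists served in the choice of members, and the part of this input difference in the pT120 values was not tested. Dividing the pT120 ratio by the input ratio gave 0.276, which is a description.

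Set against the input of its own siRNA, pT120 in siVRK1 cells was 0.363 of input (0.357 to 0.368) and pT120 in siControl cells was 1.31 times input (1.29 to 1.33). The siVRK1 pT120 level lay below the siVRK1 input in 7228 members (91.9%), close to the 91.1% of the whole siVRK1 ubK119 list. The siControl pT120 level lay below the siControl input in 2896 members (36.8%) and in 41.3% of the list. Summed over the whole list, pT120 was 0.644 of input in siVRK1 cells and 0.948 of input in siControl cells. Very deep regions weigh on these sums, with up to 53100 siVRK1 and 32988 siControl pT120 reads in a single region. In the members, the siVRK1 value stayed below 1 with either input, at 0.488 with the siControl input. The siControl value did not keep its side: over the siVRK1 input it was 0.976 (0.964 to 0.990), so a pT120 level above input in siControl cells rests on the siControl input library. VRK1, which was used in the choice, was 1.41 times the siControl input (1.39 to 1.43) and 1.05 times the siVRK1 input (1.04 to 1.06) in the members.

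Part of the pT120 ratio was shared with regions outside the members. Over the 34403 input regions the pT120 ratio was 0.704, a shift of -0.51 on the log2 scale between the libraries. The members' ratio relative to these regions was 0.528 (0.519 to 0.537). Keeping the 33701 input regions where neither input exceeded 100 reads, a restriction made after the values were seen, gave a shift of -0.72 and a relative ratio of 0.610 (0.600 to 0.620). The members thus had lower pT120 in siVRK1 cells than in siControl cells under either scaling, with a smaller difference than by library totals.

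Other sets of ubK119 peaks show where the members stood. The 815 short siVRK1 ubK119 peaks that overlapped a siControl ubK119 peak, and no VRK1 or input peak, had a pT120 ratio of 0.477 (0.456 to 0.499), above the interval of the members. Between these sets the siVRK1 pT120 level differed more than the siControl level: it was 319 RPM per Mb in the members and 438 RPM per Mb in the 815 peaks, whereas siControl pT120 was 858 RPM per Mb in the members and 918 RPM per Mb in the 815 peaks. The 276 peaks of 500 bp or more that met the rest of the rule had a lower ratio than the members, 0.317 (0.299 to 0.337). The 446 short peaks with a VRK1 peak, and no siControl ubK119 or input peak, stood at 0.337 (0.317 to 0.358), also below the members.

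The mirror set is made of short siControl ubK119 peaks that overlapped no siVRK1 ubK119, VRK1 or input peak. These 21415 regions had a pT120 ratio of 0.930 (0.922 to 0.939), against 0.371 in the members. Their siVRK1 pT120 level was 611 RPM per Mb, against 319 RPM per Mb in the members, and their siControl pT120 level was 657 RPM per Mb, against 858 RPM per Mb in the members. Their input ratio was 1.07 (1.06 to 1.08), nearer to 1 than the 1.34 of the members. The whole siVRK1 ubK119 list, members included, had a pT120 ratio of 0.689 (0.686 to 0.693). Very deep regions weigh on that sum. Single regions held 53100 of its 387618 siVRK1 pT120 reads and 32988 of its 322784 siControl pT120 reads, while the medians were 4 and 6.

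**Figure D3:**
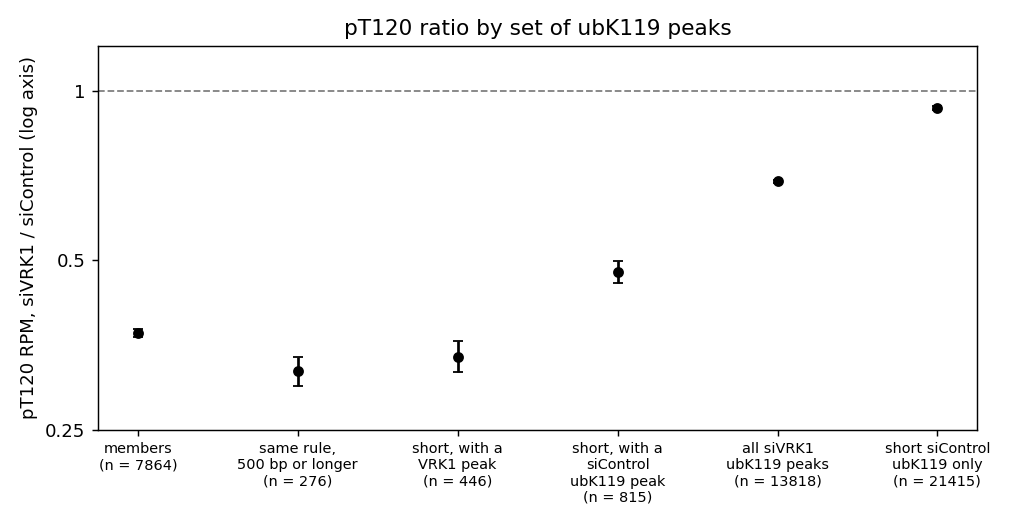
Ratio of summed pT120 RPM, siVRK1 over siControl, on a log axis, for the members and 5 other sets of ubK119 peaks, with exact conditional binomial 95% intervals for counting error; the dashed line marks equal levels. The members stand at 0.371, between the longer peaks of the same rule (0.317) and the short peaks shared with siControl (0.477), and the short siControl-only peaks stand at 0.930.

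Members seldom coincided with peaks of pT120. Only 25 of the 7864 members (0.318%, 95% Clopper-Pearson interval 0.206 to 0.469) overlapped a peak of the siVRK1 pT120 list, against 15.3% of the siVRK1 ubK119 list as a whole. For the siControl pT120 list the count was 58 members (0.738%, 0.561 to 0.952), against 16.4% of the whole ubK119 list. Short peaks on input peaks, which the rule removes, gave 1308 of the whole list's 2116 overlaps with siVRK1 pT120 peaks and 1316 of its 2269 with siControl pT120 peaks.

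The siVRK1 pT120 list is the longer one, with 42461 peaks against 6665 in siControl, yet fewer members overlapped it. When a pT120 peak within 1000 bp was enough, the order turned round, with 2.63% of members for the siVRK1 list and 2.40% for the siControl list, both still below the 15.3% and 16.4% of the whole list. By overlap, the order of the members was not particular to them. Of the 276 peaks of 500 bp or more that met the rest of the rule, 2 (0.725%) overlapped a siVRK1 pT120 peak and 7 (2.54%) a siControl one. Of the 446 short peaks with a VRK1 peak, 7 (1.57%) and 25 (5.61%) did. The order was the other way in the 21415 short siControl-only peaks, where 1148 (5.36%) overlapped a siVRK1 pT120 peak and 85 (0.397%) a siControl pT120 peak. Among the 815 short peaks shared with siControl, 27 (3.31%) overlapped a siVRK1 pT120 peak and 15 (1.84%) a siControl pT120 peak.

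Distance gave a like picture. The members lay a median of 55.5 kb from the nearest siVRK1 pT120 peak, with 18.5% of them within 10 kb. The 815 shared peaks lay a median of 22.8 kb away (35.3% within 10 kb), and the 21415 siControl-only peaks 20.1 kb away (37.6%). To the nearest siControl pT120 peak the median was 113 kb for the members, 124 kb for the siControl-only peaks and 43.4 kb for the shared peaks. The 276 peaks of 500 bp or more that met the rest of the rule lay a median of 57.8 kb from a siVRK1 pT120 peak. Their median to a siControl pT120 peak was 68.7 kb. Peaks of ubK119 in siControl cells were nearer: the median member was 5.49 kb from one, and 61.9% of members had one within 10 kb although none overlapped.

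The 25 members on a siVRK1 pT120 peak had a pT120 ratio of 0.889 (0.723 to 1.10), with between 1 and 17 siVRK1 pT120 reads and between 0 and 18 siControl reads. Of these, 9 lay on chromosome 18. The 58 members on a siControl pT120 peak had a ratio of 0.200 (0.170 to 0.234), and siControl pT120 there was 2.58 times its input (2.25 to 2.97). Both groups were picked by pT120 peaks, so these ratios are descriptions of the choice; 2 members belonged to both.

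The 8 highest members all had lower pT120 RPM in siVRK1 than in siControl cells, as did 85.8% of all peaks of the siVRK1 ubK119 list. With heights of 31 to 33 reads, they had between 1 and 6 pT120 reads in siVRK1 cells and between 2 and 14 in siControl cells, with ratios between 0.0522 and 0.492. In 3 of the 8 the interval of the ratio lay below 1.

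One of the highest lay on chromosome 5 at 1104680 to 1105103 (423 bp, height 33). It had 42 ubK119 reads (1.40 RPM) in siVRK1 cells and 13 (0.321 RPM) in siControl cells. Its pT120 reads were 1 (0.0278 RPM) in siVRK1 cells and 11 (0.532 RPM) in siControl cells, a ratio of 0.0522 (0.00121 to 0.359). This was the lowest ratio of the 8. The region was chosen by ubK119, so its difference in that mark is a description, and its pT120 ratio rests on 1 and 11 reads. The input gave 8 reads in siVRK1 and 2 in siControl cells.

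On chromosome 20, at 30434626 to 30435083 (457 bp, height 31), pT120 gave 3 reads (0.0833 RPM) in siVRK1 cells and 14 (0.677 RPM) in siControl cells, a ratio of 0.123 (0.0227 to 0.441). The inputs were nearly equal there, 0.661 RPM in siVRK1 and 0.669 RPM in siControl cells. The third of the 8 with an interval below 1, on chromosome 3 at 139272645 to 139273049, had 2 pT120 reads in siVRK1 and 8 in siControl cells and 38 ubK119 reads in siVRK1 against 4 in siControl cells.

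Other regions were picked by their pT120 reads or peaks, a choice that itself moves the ratio, so their ratios are descriptions. The 6 members with the most siControl pT120 reads held 16 to 18 of them. On chromosome 11 at 17764963 to 17765281 there were 2 siVRK1 pT120 reads (0.0555 RPM) and 17 siControl pT120 reads (0.822 RPM), a ratio of 0.0675 (0.00757 to 0.285). That region overlapped a siControl pT120 peak over 304 of its 318 bp. On chromosome 7 at 155180128 to 155180593 the reads were 5 in siVRK1 and 17 in siControl cells, a ratio of 0.169 (0.0487 to 0.477).

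The 6 members with the most siVRK1 pT120 reads held 13 to 17 of them. On chromosome 19 at 52050459 to 52050846 there were 13 reads (0.361 RPM) in siVRK1 and 5 (0.242 RPM) in siControl cells, a ratio of 1.49 (0.499 to 5.35). A pair of regions on chromosome 18 was among the 6 in each ranking. The region at 8691100 to 8691368 had 17 siVRK1 and 18 siControl pT120 reads and overlapped a pT120 peak of both lists. The region at 6523025 to 6523492 had 17 siVRK1 and 16 siControl pT120 reads and overlapped a siVRK1 pT120 peak over 200 bp.

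Among the 4 highest members on a siVRK1 pT120 peak, the one on chromosome 14 at 73078820 to 73079090 had 5 siVRK1 pT120 reads and none in siControl cells. The siVRK1 level of 0.139 RPM is below the 0.145 RPM that 3 reads are worth in the siControl library, so no fold is given. The 4 highest members on a siControl pT120 peak had ratios between 0.169 and 0.397.

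The limit of 500 bp cut through a continuous range of lengths. The longest members were 498 bp (chromosome 8, 142048933 to 142049431) and 497 bp (chromosome 5, 7825988 to 7826485). They had 6 and 8 siVRK1 pT120 reads and 5 and 6 siControl pT120 reads. Their ratios were 0.689 (0.175 to 2.85) and 0.766 (0.233 to 2.68). The shortest peaks beyond the limit were both 501 bp (chromosome 3, 127191888 to 127192389, and chromosome 4, 8104565 to 8105066). They had 3 siVRK1 pT120 reads each and 11 and 9 siControl pT120 reads. Their ratios were 0.157 (0.0281 to 0.593) and 0.191 (0.0333 to 0.767), so the intervals overlap across the limit.

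Among the members the pT120 ratio varied with the ubK119 peak itself. It was 0.383 (0.374 to 0.391) at heights of 18 or 19 reads, 0.360 (0.350 to 0.370) at 20 to 24, and 0.322 (0.295 to 0.350) at 25 or more. By length it ran in the same way, with 0.387 (0.375 to 0.399) at 200 bp and 0.352 (0.326 to 0.380) in the longest bin, with a median length of 443 bp. With siControl ubK119 it ran the other way: members with at most 3 siControl ubK119 reads had a ratio of 0.327 (0.310 to 0.344), and members with 11 or more had 0.408 (0.395 to 0.421). The siVRK1 pT120 level was 279 RPM per Mb in the lowest of these bins and 348 RPM per Mb in the highest, while the siControl pT120 level was 855 and 854 RPM per Mb. By VRK1 reads the ratio was 0.417 (0.395 to 0.441) at 0-3, 0.375 at 4-6, 0.378 at 7-10 and 0.340 (0.328 to 0.352) at 11 or more. In the same bins of siVRK1 input reads it was 0.407, 0.377, 0.364 and 0.363. The ubK119 lists and the length limit took part in the choice of members, as did the VRK1 and input lists. All of these trends are therefore descriptions. Counts rise with length, so these bins are not separate from one another.

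Members lay close together. The median distance from a member to the nearest other member was 10.6 kb, 48.9% had one within 10 kb and 13.4% within 1 kb, so many members are neighbours and not independent regions. Of the 815 shared peaks, 40.5% had another of their set within 10 kb, and of the far more numerous siControl-only peaks 59.7% had one.

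The pT120 ratio was lower where members were crowded. It was 0.338 (0.323 to 0.354) for members with a neighbour under 1 kb away and 0.420 (0.403 to 0.438) for those over 100 kb from the next. In windows of 1 Mb, members alone in their window had a ratio of 0.440 (0.408 to 0.473), those in windows of 2 to 5 had 0.406, those in windows of 6 to 19 had 0.378, and those in windows of 20 or more had 0.343 (0.334 to 0.353). The siVRK1 pT120 level was lowest in the crowded windows, 295 RPM per Mb against 356 RPM per Mb for members alone, whereas siControl pT120 was 859 RPM per Mb against 810.2 RPM per Mb. The siControl input moved along with these bins, at 597 RPM per Mb in the crowded windows and 736 RPM per Mb for members alone, and its part in the result was not tested.

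**Figure D4:**
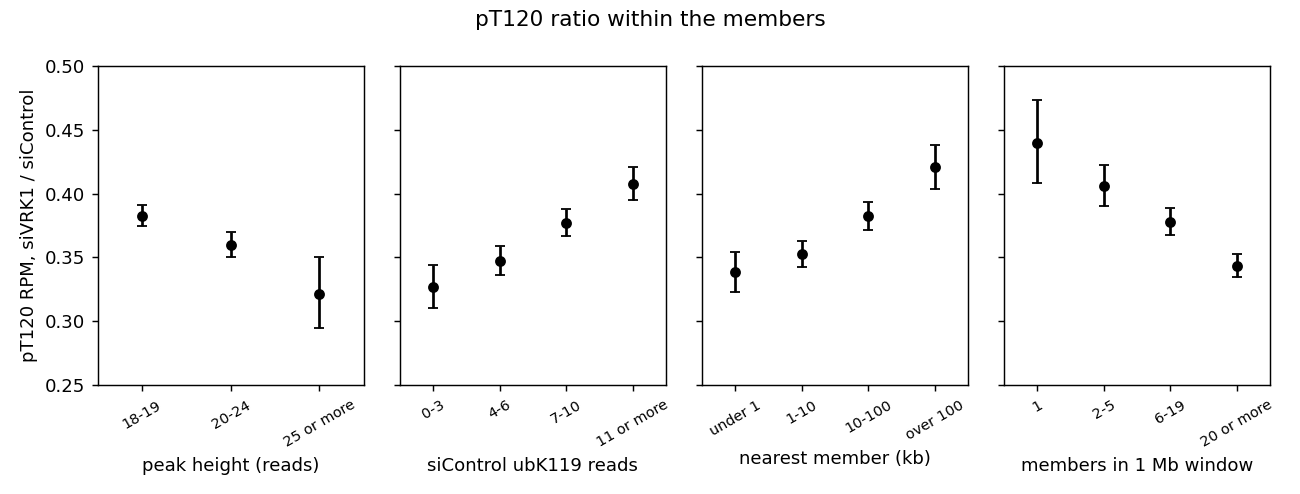
Ratio of summed pT120 RPM, siVRK1 over siControl, within the 7864 members, by peak height, by siControl ubK119 reads, by distance to the nearest other member and by the number of members in the same window of 1 Mb; bars are exact conditional binomial 95% intervals, and the axis begins at 0.25. The ratio runs between 0.322 and 0.440 and is lower at greater heights, at fewer siControl ubK119 reads and in crowded windows. Peak height and siControl ubK119 reads come from libraries that chose the members, so these trends are descriptions.

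In all, 85 windows with 20 or more members held 3129 members (39.8%), and 423 windows held a single one. In all 85 windows the pT120 ratio and its interval lay below 1, with ratios between 0.219 (chromosome 20, 60000000 to 61000000) and 0.705 (chromosome 12, 5000000 to 6000000) and a median of 0.339. The ratio was also below 1 over the whole siVRK1 ubK119 list, at 0.689, and over the input regions, at 0.704. A matching count for other peaks of these windows is not given, so this count says nothing particular to the members. The window with the most members, chromosome 5 at 2000000 to 3000000, held 103 and had a ratio of 0.406 (0.356 to 0.464). The window before it, at 1000000 to 2000000, held 85 and had a ratio of 0.231 (0.196 to 0.270), so neighbouring windows differed beyond their intervals. Chromosome 11 at 70000000 to 71000000 held 90 members with a ratio of 0.338 (0.281 to 0.405). The windows on chromosome 5 also differed in pT120 peaks: the one at 2000000 to 3000000 had 67 siVRK1 and 11 siControl peaks, and the one at 1000000 to 2000000 had 39 siVRK1 and 83 siControl peaks.

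Members were found on every chromosome, with 744 on chromosome 3, 717 on chromosome 5, 647 on chromosome 11, 563 on chromosome 10 and 524 on chromosome 20. These 5 chromosomes held 40.6% of the members, beside 38.8% of all peaks of the siVRK1 ubK119 list and 23.9% of the summed chromosome extent, so the members largely followed the list. By extent, chromosome 20 was the densest with 8.34 members per Mb, then chromosome 17 with 6.31 and chromosome 19 with 4.93, and chromosome 4 had 0.571.

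The share of a chromosome's list peaks that were members varied widely. Chromosome 18 held 1227 peaks of the siVRK1 ubK119 list, and 135 of them were members (Clopper-Pearson interval of the share 9.31% to 12.9%). On chromosome 15, 65 of 75 peaks were members (86.7%, interval 76.8% to 93.4%). The share was lower still on chromosome X, with 2 of 58 peaks, and chromosome Y, with 3 of 198, and it was 41.3% on chromosome 21, 43.0% on chromosome 16 and 44.0% on chromosome 4. Peaks that overlapped an input peak, which the rule leaves out, made up 80.3% of the list on chromosome 18, 94.8% on X, 96.0% on Y, 48.3% on chromosome 21, 51.3% on chromosome 16 and 48.0% on chromosome 4, beside 29.0% over all chromosomes.

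The pT120 ratio of the members was below 1, interval included, on each of the 22 chromosomes with at least 50 members. A matching count for the other peaks is not given, so this count says nothing particular to the members. The members' ratio was lowest on chromosome 22 at 0.308 (0.246 to 0.386) and highest on chromosome 18 at 0.481 (0.429 to 0.539) and chromosome 12 at 0.445 (0.411 to 0.481). Among these 22 the siVRK1 pT120 level was highest on chromosome 18, at 462 RPM per Mb, against 959 RPM per Mb in siControl cells there. The input ratio was above 1 on all 22 as well, between 1.19 on chromosome 18 and 1.61 on chromosome 21.

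**Figure D5:**
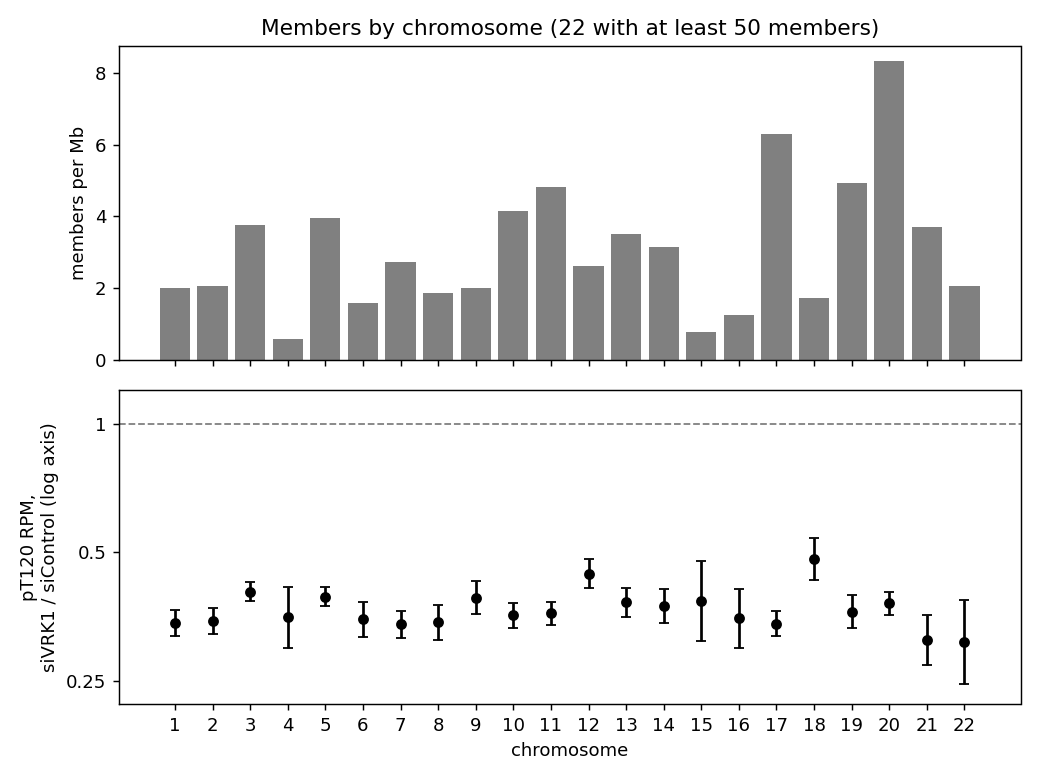
Above, members per Mb of chromosome extent; below, the ratio of summed pT120 RPM, siVRK1 over siControl, on a log axis with exact conditional binomial 95% intervals, for the 22 chromosomes with at least 50 members. Chromosome 20 is the densest at 8.34 per Mb, and every ratio lies below 1, between 0.308 on chromosome 22 and 0.481 on chromosome 18.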

How the data were processed

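Chromatin of fixed and sonicated HT1080 nuclei was precipitated and, per the labels' protocols, amplified with 20 PCR cycles and sequenced over 36 cycles. Tools named in the submitters' processing notes are Bowtie 0.12.8, CASAVA 1.8.2 and Partek, and the build is hg19. How peaks were called, and how duplicate reads were handled, is unknown from these sources. The peak height deposited per library is a signal, per the file headers, and the same height was deposited in RPM; their quotient gave each library total. For every region each list also gives a raw read count for each of the 7 libraries, per the file headers. The authors also deposited the percent of a region that another library's peaks cover, against which the overlaps were checked, with 0 calls differing. The Mann-Whitney p-value per peak is the authors' own. The control header spelling "siVCont" was read as siControl, and positions are printed as deposited, with a base of 0 or 1 that the sources do not state.

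Counts were divided by library totals (RPM) with Python 3.11.15, pandas 2.3.3 and scipy 1.17.1. Ratios carry exact conditional binomial intervals, levels exact Poisson and shares Clopper-Pearson intervals, at 95%. On simulated reads for the 7864 members a true pT120 ratio of 0.4 was covered in 95.5% of 200 draws. The reads were drawn as independent Poisson counts, so this checks the calculation alone. It cannot show how the intervals hold for reads amplified by PCR. The members and comparison sets were chosen with earlier results of these data known. Named regions are the 8 highest members, the 6 with the most pT120 reads in each library, the 4 highest on a peak of each pT120 list, the 3 windows of 1 Mb with the most members, and the 2 peaks on each side of the length limit. Other windows are named for the lowest and highest ratio. Alternatives covered the length, gap, height, input reads, read minimum and scaling.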

Additional observations from a re-analysis of the deposited data

How the results depend on the processing

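Of 41 alternative values, 19 stayed within the interval of the reported value or, for counts, within 1.5 times of it. No paired analysis was possible because each condition had 1 library and no difference was tested. The pT120 ratio of 0.371 became 0.378 for lengths under 300 bp and 0.353 at heights of 22 or more. It became 0.383 as a median over the 1921 members with at least 10 pT120 reads, and 0.276 divided by the input ratio. Scaled to input regions it was 0.528 or 0.610. The last was chosen after the values were seen. So were all alternatives for pT120 over input and the last share given for siVRK1 pT120 peaks. The pT120 ratio stayed below 1 in all 9 alternatives. The siVRK1 pT120 over input became 0.371 under 300 bp, 0.337 at heights of 22 or more and 0.488 with the siControl input. The siControl pT120 over input became 1.29 under 300 bp, and with the siVRK1 input it crossed 1, at 0.976; the cause of the difference between inputs was not tested. The share on siVRK1 pT120 peaks became 0.102% with an overlap of at least 0.5 of the member and 2.63% within 1000 bp. It became 0.145% for members with no peak of the excluding lists within 1000 bp. On siControl pT120 peaks the same overlap gave 0.458% and the same distance 2.40%. The order of these shares thus turned round within 1000 bp, with overlapping intervals. A height of 22 left 1020 members. With at least 5 pT120 reads, 4004 of 6078 members (65.9%; whole list 58.9%) were at or below 0.5 and 235 (3.87%; list 2.96%) at or above 2. With at least 20, 24 of 38 (63.2%; list 40.5%) and 0 (list 0.972%) were. The 5 chromosomes held 1.05 times their share of the list. Against their share of the siVRK1 input reads in the input regions, which the rule leaves out, the value was 1.33. Depth limits single members: the median held 3 siVRK1 and 4 siControl pT120 reads.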
